A study of Mus musculus with 20 samples.

Results

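The 8 genes described here encode the enzymes and carriers that set gluconeogenesis and the entry of fructose into it, with 1 regulator: Fbp1, Fbp2, Pck1, Pck2, Pcx, Slc37a4, Khk and Ppargc1a. They were chosen by gene symbol from the 55642 genes quantified in the kidneys and livers of mice, and all 8 were found, each under 1 gene identifier. The organs came from adult male DBA/2J mice, an inbred strain, in a study of the bromodomain inhibitor JQ1 as a male contraceptive. The question for these organs was whether their transcriptomes changed at the end of dosing and after it was stopped. JQ1 binds the acetyl-lysine pockets of the BET proteins, a family of chromatin readers that help RNA polymerase to elongate.

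Each organ had 10 poly(A) RNA libraries. JQ1 treatment (3 libraries, mice aged 10 weeks) followed 3 weeks of daily intraperitoneal JQ1 at 50 mg/kg. JQ1 recovery (3 libraries, aged 16 weeks) followed the same dosing and 6 weeks without drug. Vehicle (4 libraries; DMSO in hydroxypropyl-cyclodextrin without JQ1) pooled 3 from the end of dosing, aged 10 weeks, with 1 from the recovery time, aged 16 weeks, so that age is not balanced between the groups. The sample titles call all 4 vehicle, while the text of the series also speaks of untreated controls. A legend in the study's supplement puts most vehicle animals at the recovery time instead and gives less time without drug. The RNA-seq methods of that supplement give the same split of controls as the sample labels. Groups here follow the sample labels, so results that turn on the 16-week vehicle library hold only as far as its label does. Nothing in the labels names the animals, so p-values measure the spread between libraries. Summed reads per library ran between 13952510 and 26895318 in kidney, and between 11968500 and 17529910 in liver.

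Gluconeogenesis makes glucose from lactate, amino acids and glycerol, and only liver, kidney cortex and, to a lesser degree, intestine can release that glucose. In kidney it takes place in the proximal tubule, where it uses carbon from glutamine and is tied to ammonia formation and acid excretion; in liver it is strongest near the portal vein and is driven by glucagon and restrained by insulin. Fructose is phosphorylated by ketohexokinase and then split in both organs, and its carbon can leave as glucose through the last steps of the same pathway.

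2 of the liver libraries stood apart and touch several results. Liver JQ1 recovery replicates 2 and 3 held transcripts of kidney genes: the sum of 11 markers of distal nephron, collecting duct and podocyte was 608.7 and 261.8 CPM (reads scaled to the library total), which is 33.1% and 14.2% of the kidney median, against 1.80 to 3.86 CPM in the other 8 liver libraries. Aqp2, the collecting duct water channel, had 530 and 236 reads in these libraries and 0 reads in the other 8. The members' liver recovery results are therefore given with and without both libraries. Otherwise the organ labels matched their markers. The summed proximal tubule markers were between 12310 and 14630 CPM in kidney, and between 379.2 and 457.7 CPM in the same 8 livers. In bulk tissue, fewer cells of a type and less RNA per cell cannot be told apart.

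The promoters of Fbp1 and Pck1 are shown because these were the members that passed the test in treated kidneys. The 250 bases before the RefSeq start (build GRCm38.p6, gene strand, 5′ to 3′) lie at chr13:62888283-62888532 on the minus strand for Fbp1 and at chr2:173152823-173153072 on the plus strand for Pck1. Capitals mark each match, on either strand, to short words of sites for factors and elements known at gluconeogenic promoters, which are spelled out after the sequences.
Fbp1: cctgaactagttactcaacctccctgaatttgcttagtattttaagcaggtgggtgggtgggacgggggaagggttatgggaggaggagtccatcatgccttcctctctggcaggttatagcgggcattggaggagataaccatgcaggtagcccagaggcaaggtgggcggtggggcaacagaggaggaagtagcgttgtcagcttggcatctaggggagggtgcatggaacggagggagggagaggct
Pck1: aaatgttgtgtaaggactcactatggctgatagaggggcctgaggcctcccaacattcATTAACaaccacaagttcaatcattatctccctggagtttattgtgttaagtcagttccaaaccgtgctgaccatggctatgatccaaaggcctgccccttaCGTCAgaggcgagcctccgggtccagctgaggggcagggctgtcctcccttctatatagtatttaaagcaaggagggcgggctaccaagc
The Pck1 window held 2 matches, both as the reverse complement, and they do not overlap. One was the cyclic AMP response word (TGACG) with its first base at position -90 from the start, found in 17.7% of the 32817 promoter windows of the same length. The other was the HNF1 word (GTTAAT) at position -192, found in 6.44% of the windows. The Fbp1 window held 0 matches. The other words searched were 2 forms of the FOXO site, present in 3.16% (TGTTTAC) of the windows and in 4.3% (TGTTTGC) of them, the C/EBP word in 2.22% (ATTGCG), the nuclear receptor word in 14% (AGGTCA), the E-box in 6.02% (CACGTG) and the TATA box in 12.4% (TATAAA). A match is a description of letters, and these data hold no binding measurement.

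In treated kidneys, Fbp1 rose 1.60-fold and Pck1 1.70-fold over vehicle. No member fell past the test, although Pcx did so under some alternative settings. Of the 8 members, 2 were called at an adjusted p below 0.05 (edgeR quasi-likelihood test, adjusted over 17158 genes), against 4.13% of all genes called in either direction, 1.4% higher and 2.73% lower. Without TMM factors, which moved the median of all genes to -0.10, the 709 calls (240 higher, 469 lower) became 844 (100 higher, 744 lower), and both members were still called. The median log2 fold change of the members was 0.21, beside -0.01 over all genes tested.

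Fbp1, the liver and kidney form of fructose bisphosphatase, removes a phosphate from fructose bisphosphate in a step that cannot run backwards. It had 598, 547 and 623 CPM in treated kidneys, 441, 438 and 438 CPM in recovery kidneys, and 349, 343, 374 and 408 CPM in vehicle kidneys. All 3 treated kidneys lay above every other kidney, and the highest vehicle value was that of the 16-week library. The log2 fold change of treatment over vehicle was 0.68 ± 0.07 (SE; edgeR adjusted p = 2.085e-05), and that of treatment over recovery was 0.43 ± 0.08 (edgeR adjusted p = 0.00215). Recovery over vehicle was 0.25 ± 0.07 (edgeR adjusted p = 0.278) and did not pass, although the 3 recovery values all lay above the 4 vehicle values.

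Pck1, the cytosolic phosphoenolpyruvate carboxykinase, turns oxaloacetate into phosphoenolpyruvate. Its values were 953, 934 and 967 CPM in treated kidneys, 644, 686 and 753 CPM in recovery kidneys, and 528, 417, 652 and 641 CPM in vehicle kidneys. The treated values were close to each other and did not overlap with vehicle, whose lowest and highest libraries were both of the 10-week age. The log2 fold change of treatment over vehicle was 0.77 ± 0.13 (edgeR adjusted p = 0.00472). Treatment over recovery was 0.45 ± 0.14 (edgeR adjusted p = 0.0706), and recovery over vehicle was 0.31 ± 0.13 (edgeR adjusted p = 0.487), so neither of these passed.

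**Figure D1:**
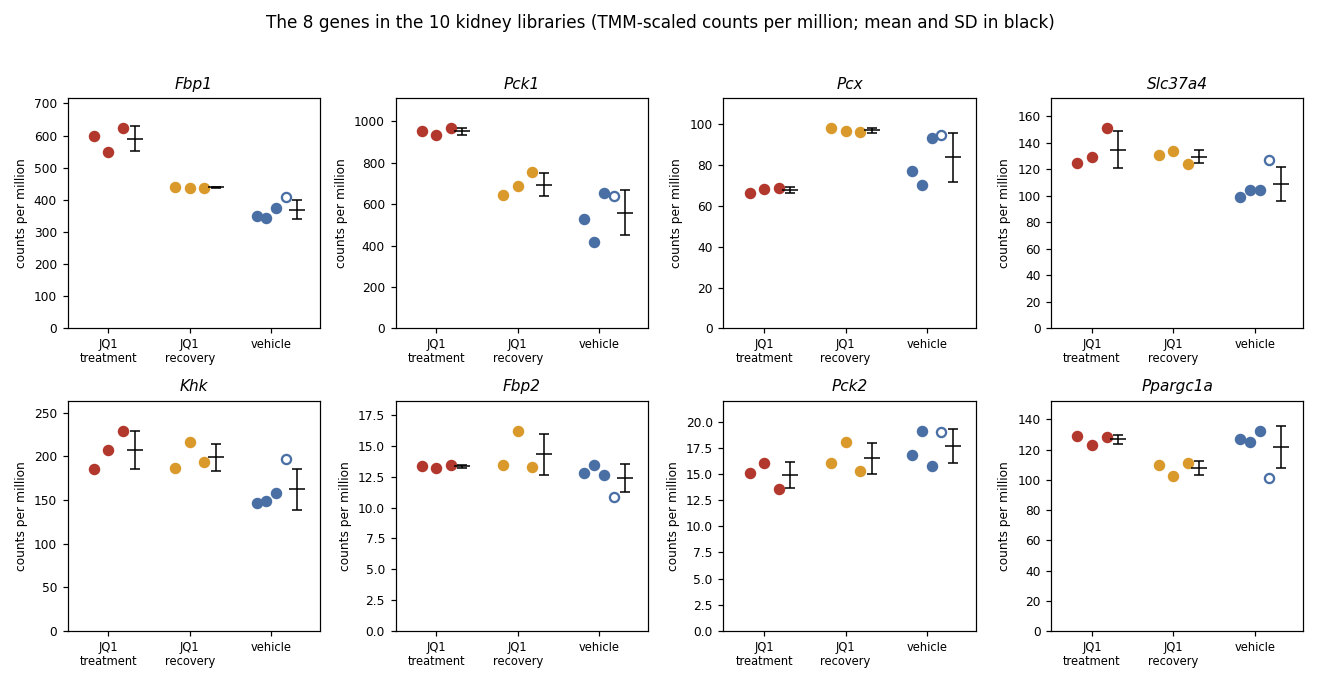
Each panel shows 1 gene in the 10 kidney libraries, with the group on the x axis and TMM-scaled CPM from 0 on the y axis; points are libraries, the open circle is the 16-week vehicle library, and the black mark is the mean with its SD. Fbp1 and Pck1 lie higher in all 3 JQ1 treatment libraries than in any vehicle library (for Pck1, 934 to 967 against 417 to 652 CPM), while Pcx lies lower (66.3 to 69.1 against 70.5 to 94.5 CPM).

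Pcx, pyruvate carboxylase, is the mitochondrial enzyme that makes the oxaloacetate on which Pck1 acts. It had 66.3, 68.3 and 69.1 CPM in treated kidneys, 98.2, 96.6 and 96.2 CPM in recovery kidneys, and 76.9, 70.5, 93.5 and 94.5 CPM in vehicle kidneys. The treated values lay below every vehicle value, but the vehicle libraries were split into 2 near 70 to 77 CPM and 2 near 94 CPM. Treatment over vehicle was -0.31 ± 0.09 on the log2 scale (edgeR adjusted p = 0.0676), just short of the threshold. DESeq2 called Pcx lower, where 1042 of 17158 genes were called. Pcx was also called without vehicle replicate 2 of the 10-week age (edgeR adjusted p = 0.0151), where 620 of 17010 genes were. It stayed uncalled under 6 of 9 alternative settings, and ranged from -0.40 to -0.16 over all 9. Against recovery, where the 3 values were tight, Pcx fell by 0.51 ± 0.10 on the log2 scale (edgeR adjusted p = 0.00283). Across the members, 2 were higher without overlap with vehicle (Fbp1 and Pck1) and 1 was lower (Pcx), where 6.85% and 8.31% of all genes did so.

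Slc37a4 carries glucose phosphate into the endoplasmic reticulum, where it is turned into free glucose, and Khk, ketohexokinase, phosphorylates fructose. Slc37a4 had 125, 129 and 151 CPM in treated kidneys, 131, 133 and 124 CPM in recovery kidneys, and 98.7, 105, 104 and 127 CPM in vehicle kidneys. Khk had 186, 208 and 229 CPM in treated kidneys, 186, 216 and 194 CPM in recovery kidneys, and 146, 149, 157 and 197 CPM in vehicle kidneys. In both genes the 3 vehicle kidneys of 10 weeks were the lowest of all 10, and the 16-week vehicle kidney lay among the JQ1 libraries. Treatment over vehicle was 0.31 ± 0.09 for Slc37a4 (edgeR adjusted p = 0.0524) and 0.35 ± 0.10 for Khk (edgeR adjusted p = 0.0631) on the log2 scale, and neither passed. Without the 16-week vehicle library, both were called, at 0.40 ± 0.08 for Slc37a4 (edgeR adjusted p = 0.00557) and 0.47 ± 0.08 for Khk (edgeR adjusted p = 0.00255), where 3.66% of all genes were. Between 79.6% and 84.1% of the Khk reads in treated and vehicle kidneys were assigned to 1 transcript model of 544 bases, Khk-202, which is annotated as a retained intron, so most of the Khk value rests on that model.

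The other 3 members stayed further from the threshold in treated kidneys. At an unadjusted p below 0.05, edgeR had 6 of the 8 members, Pck2 among these 3, where 2926 of 17158 genes were. DESeq2 and limma-voom each had 5, without Pck2. Fbp2, the muscle form of fructose bisphosphatase, had 13.4, 13.2 and 13.5 CPM in treated kidneys and 12.8, 13.4, 12.6 and 10.8 CPM in vehicle kidneys (log2 fold change 0.10 ± 0.12, edgeR adjusted p = 0.726). Pck2, the mitochondrial phosphoenolpyruvate carboxykinase, had 15.1, 16.0 and 13.5 CPM in treated kidneys and 16.8, 19.1, 15.8 and 19.0 CPM in vehicle kidneys (log2 fold change -0.24 ± 0.11, edgeR adjusted p = 0.281). Ppargc1a, a coactivator that in liver switches on gluconeogenic and mitochondrial genes, had 129, 123 and 128 CPM in treated kidneys and 127, 125, 132 and 101 CPM in vehicle kidneys (log2 fold change 0.06 ± 0.08, edgeR adjusted p = 0.770). Its sign turned when the 16-week vehicle library was left out, at -0.01. The recovery kidneys were within or near these ranges, between 13.3 and 16.2 CPM for Fbp2, 15.3 and 18.1 CPM for Pck2, and 102 and 111 CPM for Ppargc1a.

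Signs of other cells moved with some of these libraries. The summed red cell markers were between 9089 and 12090 CPM in treated kidneys and between 4793 and 8255 CPM in vehicle kidneys, without overlap, and 3 of the 6 markers were called higher. Treated replicate 1 had the highest adipocyte sum (717.6 CPM, against 102.4 and 263.0 CPM in the other treated kidneys and 143.2 to 450.0 CPM in vehicle) and the highest leukocyte sum (362.5 CPM, against 42.4 and 80.3 CPM in the other treated kidneys and 50.2 to 97.4 CPM in vehicle); all 10 adipocyte markers had reads in every kidney. The 1 leukocyte marker called of 6 tested went the other way: Cd74, an invariant chain of antigen presentation, was at -2.40 in treated kidneys (edgeR adjusted p = 0.00164). Pck1 is also an adipocyte gene, and it had 953, 934 and 967 CPM in treated replicates 1, 2 and 3. Without treated replicate 1, Pck1 was 0.76 ± 0.16 (edgeR adjusted p = 0.0403) and Fbp1 was 0.67 ± 0.08 (edgeR adjusted p = 4.728e-05) on the log2 scale, and Khk (0.43, edgeR adjusted p = 0.0357) and Slc37a4 (0.36, edgeR adjusted p = 0.0375) were called as well, where 2.79% of all genes were. Proximal tubule markers summed to between 13490 and 14400 CPM in treated kidneys and between 12310 and 13710 CPM in vehicle kidneys, with 3 of 13 called higher (Miox, Slc34a1 and Keg1) and 1 called lower (Slc7a13). The part of the red cell, adipocyte, leukocyte and tubule levels in the member results was not tested.

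After 6 weeks without drug, 0 of the 8 members were called in kidney against vehicle, where 0.00583% of all genes were called. At an unadjusted p below 0.05, edgeR, DESeq2 and limma-voom each had 5 members (Fbp1, Pck1, Pcx, Slc37a4 and Khk), where 9.16%, 9.1% and 9.42% of all genes were, and DESeq2 and limma-voom also called 0. All 5 were positive, at 0.25 for Fbp1, 0.31 for Pck1, 0.21 for Pcx, 0.25 for Slc37a4 and 0.29 for Khk on the log2 scale. Fbp1 and Pcx did not overlap with vehicle on the higher side, where 5.26% of genes did so, and 0 members were lower without overlap, against 5.2%. The comparisons of treatment and of recovery with vehicle share the same 4 vehicle libraries. The result turned on the 16-week vehicle library: without it, Fbp1 (0.31, edgeR adjusted p = 0.0321), Slc37a4 (0.34, edgeR adjusted p = 0.0350) and Khk (0.40, edgeR adjusted p = 0.0183) were called, where 1.41% of all genes then were (1.12% higher), and against that library alone the same genes were at 0.12, 0.04 and 0.02. With 1 vehicle library of that age, age and recovery cannot be told apart.

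Between treatment and recovery in kidney, 2 of 8 members were called, Fbp1 higher and Pcx lower, against 7.31% of all genes (2.41% higher, 4.91% lower). The treated mice were 10 weeks old and the recovery mice 16 weeks old, so drug and age cannot be told apart there either.

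Of 15 genes of fructose and polyol handling tested in treated kidneys, 4 rose, 0 fell and 11 did not pass. This is 26.7% called, beside 4.13% of all genes, while 7 of the 15 were positive and the list median was -0.02. Like the members and the other lists, this list was chosen with earlier results of these data known. Its share is therefore a description and not independent support. Slc5a10, a sodium-coupled carrier of mannose and fructose in the proximal tubule, had 233, 255 and 269 CPM in treated kidneys and 99.2, 93.4, 127 and 111 CPM in vehicle kidneys, a 2.34-fold rise (log2 1.23 ± 0.10, edgeR adjusted p = 4.277e-06). Slc2a5, the fructose transporter GLUT5, had 38.7, 50.1 and 55.0 CPM in treated kidneys and 26.1, 23.6, 32.8 and 24.7 CPM in vehicle kidneys (log2 0.84 ± 0.14, edgeR adjusted p = 0.00315). Neither gene overlapped between these groups. In recovery kidneys, Slc5a10 lay within the vehicle range, at 95.04 to 117 CPM, and Slc2a5 lay within or below it, at 19.8 to 26.7 CPM.

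Downstream of Khk, Tkfc, triokinase, which phosphorylates the glyceraldehyde formed from fructose, had 155, 171 and 190 CPM in treated kidneys and 109, 113, 129 and 132 CPM in vehicle kidneys (log2 0.51 ± 0.08, edgeR adjusted p = 0.00096). Its treated values lay above every vehicle value. Slc5a10, Slc2a5 and Tkfc thus rose, with Khk itself just short of the threshold. The other transporters on this list did not pass, and 11 of its 15 genes were not called.

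**Figure D2:**
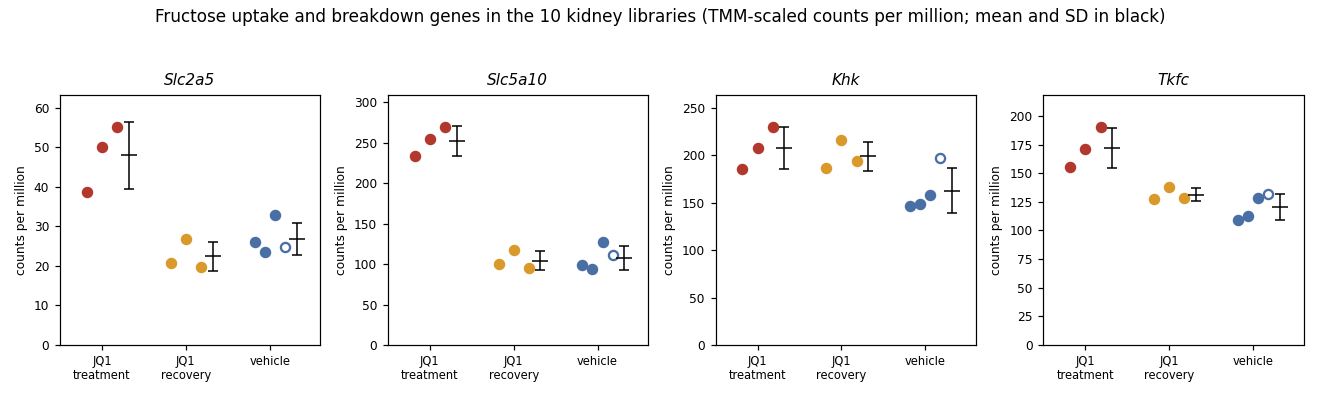
The 4 panels show the called transporters Slc2a5 and Slc5a10, then Khk and Tkfc, in the 10 kidney libraries. Other transporters on the fructose list were not called and are not shown. The group is on the x axis and TMM-scaled CPM from 0 is on the y axis. Points are libraries, the open circle is the 16-week vehicle library, and the black mark is the mean with its SD. JQ1 treatment lies above vehicle without overlap for all but Khk, most widely for Slc5a10 (233 to 269 against 93.4 to 127 CPM).

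Of 21 other gluconeogenic steps and carriers tested, 3 rose, among them Slc25a10 and Eno1, and 0 fell, with a list median of 0.03. This is 14.3% called, beside 4.13% of all genes. The list shares a gene that rose with the fructose list, so their counts are not separate. Slc25a10, the mitochondrial dicarboxylate carrier, had 157, 190 and 181 CPM in treated kidneys and 107, 123, 120 and 121 CPM in vehicle kidneys (log2 0.58 ± 0.07, edgeR adjusted p = 0.000115). Eno1, an enolase whose reads can be split with its near-identical copy, was at 0.35 ± 0.09 (edgeR adjusted p = 0.0257) and is uncertain at the single gene. Of 16 genes of glycolytic control tested, 0 were called, beside 4.13% of all genes, with a median of 0.05.

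Of 28 regulators of gluconeogenic genes tested, 1 was called (3.57%, beside 4.13% of all genes): Gcgr, the glucagon receptor, fell by 0.81 ± 0.16 on the log2 scale (edgeR adjusted p = 0.00523), with 4.45, 5.42 and 4.83 CPM in treated kidneys and 7.73, 7.81, 8.80 and 10.2 CPM in vehicle kidneys. The list median was -0.05. Of 18 partners and targets of Ppargc1a, 2 rose (11.1%, beside 4.13% of all genes), with a list median of 0.01. They were Idh3a (0.29 ± 0.07, edgeR adjusted p = 0.0194) and Cycs (0.36 ± 0.09, edgeR adjusted p = 0.0232), both of mitochondrial energy metabolism. Cycs has pseudogenes that can take its reads and is uncertain at the single gene. Ppargc1a itself did not pass.

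Of 13 genes of renal ammonia formation and acid handling, 2 rose and 2 fell, with a median of 0.18. This is 30.8% called, beside 4.13% of all genes (1.4% higher, 2.73% lower). Slc4a4, which returns bicarbonate to the blood from the proximal tubule, rose (0.40 ± 0.08, edgeR adjusted p = 0.00856), as did Car2, the cytosolic carbonic anhydrase (0.39 ± 0.09, edgeR adjusted p = 0.0268). Car4, the carbonic anhydrase on the tubule surface, fell by 0.76 ± 0.09 (edgeR adjusted p = 3.718e-05), with 37.3, 40.1 and 42.2 CPM in treated kidneys and 62.5, 69.3, 71.5 and 66.5 CPM in vehicle kidneys. Of the list genes named, Eno1, Idh3a, Cycs, Slc4a4 and Car2 each lost their call under at least 1 alternative. In recovery kidneys, treated livers and recovery livers, 0 genes of these 6 lists were called, where 0.00583%, 0.495% and 0.0343% of all genes were.

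Genes most like the called members over the 10 kidney libraries were found by the root mean square difference of centred log2 CPM among 8407 genes. Among the 3 nearest to Fbp1 were Ybx1 (0.0871) and Plod2 (0.0947), beside an SD of 0.307 for Fbp1 itself. Among the 3 nearest to Pck1 were Fbp1 (0.143) and Acat2 (0.162), beside an SD of 0.389. Ybx1 has processed copies elsewhere in the genome and Acat2 a close paralog, so these are uncertain at the single gene.

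In treated livers, Fbp1 was the 1 member called, and it rose 1.66-fold, beside 1.60-fold in kidney. Of 7 members tested, 1 was called, against 0.495% of all genes in either direction and 0.268% higher (0.227% lower), and Fbp2 had too few reads to be tested. The median of the 7 was 0.18, beside 0.0025 over all 14559 genes. Fbp1 had 459, 478 and 529 CPM in treated livers, 241, 281 and 271 CPM in recovery livers, and 298, 328, 273 and 278 CPM in vehicle livers. Every treated liver lay above every other liver. Treatment over vehicle was 0.73 ± 0.11 on the log2 scale (edgeR adjusted p = 0.0105), and treatment over recovery was 0.89 ± 0.12 (edgeR adjusted p = 0.00492), the 1 member called there, against 2.29% of all genes (1.31% higher, 0.989% lower). The call against vehicle was lost without treated replicate 2 (edgeR adjusted p = 0.0766) or 3 (edgeR adjusted p = 0.0789), at 0.74 and 0.67. Without recovery replicates 2 and 3 it was 0.72 ± 0.09 (edgeR adjusted p = 7.457e-05), and treatment over recovery was 1.01 ± 0.14 (edgeR adjusted p = 0.00127).

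Liver cell and zone markers also differed between these groups. The hepatocyte sum was between 78230 and 91510 CPM in treated livers and between 65860 and 72940 CPM in vehicle livers, with 0 of 8 markers called. The pericentral sum was between 2320 and 2716 CPM in treated livers and between 3335 and 3854 CPM in vehicle livers, with 1 of 7 markers called, Lect2 (-1.14, edgeR adjusted p = 0.00633). The periportal sum was between 3264 and 3524 CPM in treated livers and between 2968 and 3252 CPM in vehicle livers, with 0 of 7 called. The leukocyte sum was between 66.9 and 69.4 CPM in treated livers and between 75.7 and 113 CPM in vehicle livers, with 1 of 6 tested called, Cd74 (-2.56, edgeR adjusted p = 0.0330). None of these 4 sums, scaled to library totals without TMM factors, overlapped between treated and vehicle livers. The gap was narrow for periportal markers, 3264 against 3252 CPM, and for leukocytes, 69.4 against 75.7 CPM. Neither gap may hold with TMM factors. All 7 pericentral and 7 periportal markers had reads in every liver. The part of these sums in the Fbp1 result was not tested.

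Pck1 varied most between treated livers. It had 699, 443 and 240 CPM in treated livers, 428, 478 and 490 CPM in recovery livers, and 387, 253, 366 and 298 CPM in vehicle livers. The 3 treated values spanned more than the whole vehicle range, in both directions. Treatment over vehicle was 0.50 ± 0.30 on the log2 scale (edgeR adjusted p = 0.679), and leaving out single libraries moved it between 0.06 and 0.81.

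**Figure D3:**
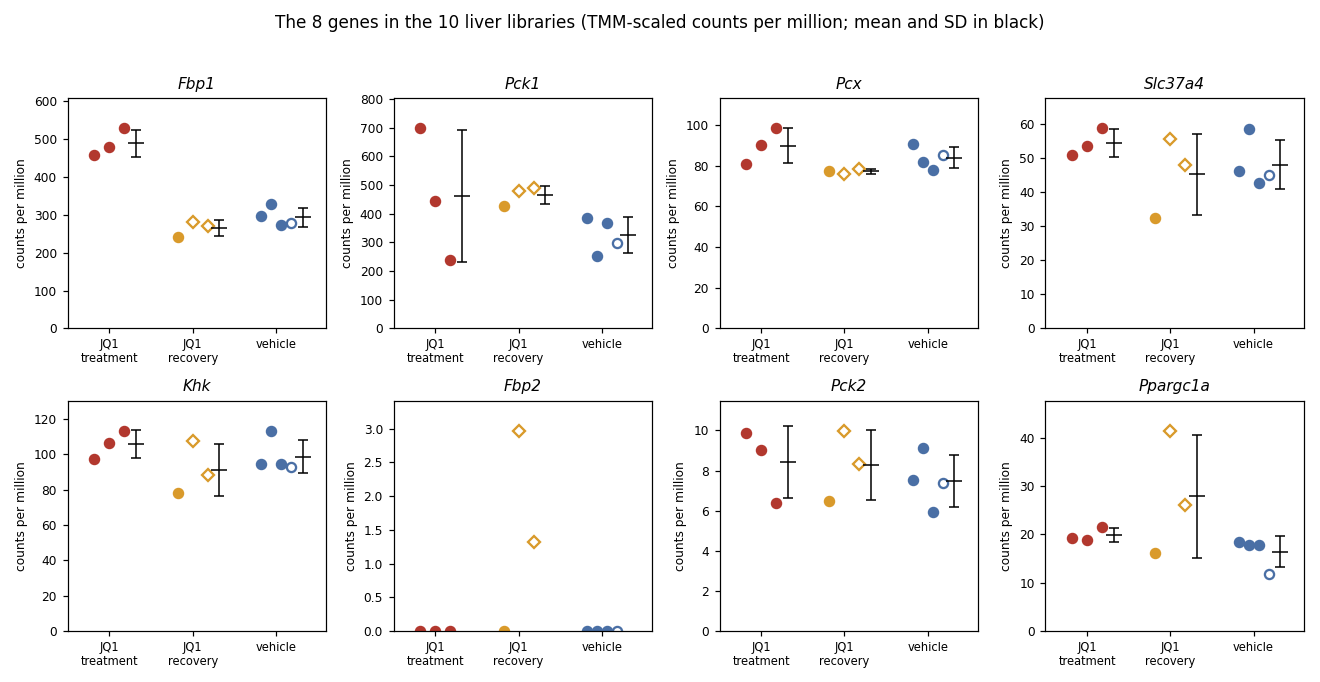
Each panel shows 1 gene in the 10 liver libraries, with the group on the x axis and TMM-scaled CPM from 0 on the y axis; filled points are libraries, diamonds are JQ1 recovery replicates 2 and 3, the open circle is the 16-week vehicle library, and the black mark is the mean with its SD (left out where a library is at 0). Fbp1 lies higher in all 3 JQ1 treatment libraries than in vehicle (459 to 529 against 273 to 328 CPM), and Fbp2 has reads only in the 2 diamond libraries.

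The remaining members were close to vehicle in treated livers. The log2 fold changes were 0.27 ± 0.27 for Ppargc1a, 0.18 ± 0.16 for Slc37a4, 0.18 ± 0.21 for Pck2, 0.10 ± 0.12 for Khk and 0.10 ± 0.10 for Pcx, with edgeR adjusted p between 0.813 and 0.872. Ppargc1a had 19.2, 18.7 and 21.4 CPM in treated livers and 18.4, 17.7, 17.9 and 11.7 CPM in vehicle livers, and with Fbp1 was 1 of 2 members higher without overlap, where 6.79% of all genes were. For Ppargc1a that gap was narrow, 18.7 against 18.4 CPM. In the fructose list, Tkfc had 148, 152 and 143 CPM in treated livers and 104, 130, 112 and 106 CPM in vehicle livers, at 0.38 ± 0.10 (edgeR adjusted p = 0.128). Without recovery replicates 2 and 3, where 2.3% of all genes were called, Tkfc was called higher (0.37, edgeR adjusted p = 0.0286) and Slc2a5 lower (-1.28, edgeR adjusted p = 0.0395). Car2 was then called higher too (1.23), and Hk2 (-1.30), Cebpb (-0.56) and Slc13a3 (-1.54) lower. Slc2a5 was low in liver, with 1.01, 2.39 and 2.39 CPM in treated livers and 6.30, 3.84, 4.14 and 4.23 CPM in vehicle livers.

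In recovery livers, Ppargc1a and Fbp2 were highest in replicates 2 and 3, the libraries with kidney transcripts. With all libraries, 0 of 7 members were called against vehicle, where 0.0343% of all genes were called (0.0137% higher, 0.0206% lower), and at an unadjusted p below 0.05 edgeR, DESeq2 and limma-voom each had 1 of the 7, Ppargc1a, where 16.7%, 17.3% and 16.2% of all genes were, and DESeq2 and limma-voom called 0 members. Ppargc1a had 16.2, 41.4 and 26.0 CPM in recovery livers and 18.4, 17.7, 17.9 and 11.7 CPM in vehicle livers. The log2 fold change was 0.77 ± 0.27 (edgeR adjusted p = 0.192) with all libraries and -0.02 ± 0.22 (edgeR adjusted p = 0.996) without replicates 2 and 3. Without replicate 1 alone, which leaves only those 2, it was called at 1.02 (edgeR adjusted p = 0.00213), in a setting where 13.6% of all genes were called.

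Fbp2 had 44 and 20 reads in recovery replicates 2 and 3 and 0 reads in the other 8 livers, or 28.2% and 10.6% of the kidney median. The shares of the distal markers in the same libraries were 33.1% and 14.2%. Whether kidney material gave the Fbp2 reads or the Ppargc1a values was not tested. The other members moved less: with and without both libraries, the recovery log2 fold change was 0.51 and 0.39 for Pck1, -0.15 and -0.29 for Fbp1, -0.09 and -0.58 for Slc37a4, -0.11 and -0.34 for Khk, -0.12 and -0.12 for Pcx, and 0.15 and -0.21 for Pck2. None of these passed. Pck1 was the 1 member higher than vehicle without overlap with all libraries, where 5.45% of genes were, and 0 were lower, where 6.13% were. Without both libraries the recovery group is 1 liver, whose spread is taken from the other groups. Slc37a4 was then called between treatment and recovery, at 0.74 ± 0.17 (edgeR adjusted p = 0.0447), where 0.887% of all genes were.

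**Figure D4:**
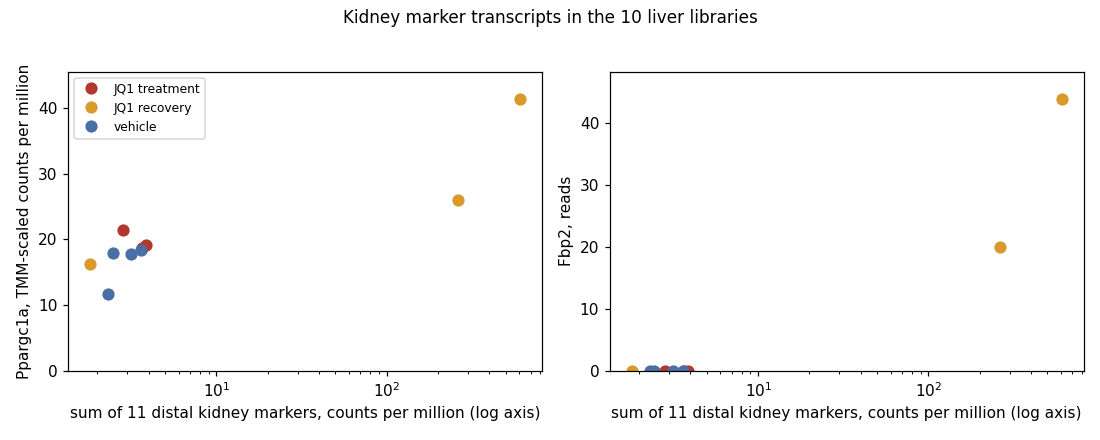
Points are the 10 liver libraries; the x axis is the sum of 11 distal kidney markers in CPM on a log axis, and the y axes are Ppargc1a in TMM-scaled CPM (left) and Fbp2 in reads (right). The 2 JQ1 recovery libraries at 608.7 and 261.8 CPM of kidney markers have the highest Ppargc1a (41.4 and 26.0 CPM) and the only Fbp2 reads (44 and 20).

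The organs did not differ past the test in how the members responded to treatment. In 1 model over all 20 libraries, the difference of the treatment effects (kidney minus liver) was called for 0 members, where 0.169% of all genes were called (0.0339% higher, 0.136% lower). It was -0.05 ± 0.12 for Fbp1, 0.27 ± 0.36 for Pck1 and 0.26 ± 0.17 for Khk on the log2 scale (edgeR adjusted p = 0.996, 0.948 and 0.782). Pcx, the member with the smallest p, was at -0.40 ± 0.14 (edgeR adjusted p = 0.418) and was the only one at an unadjusted p below 0.05, by edgeR and also by DESeq2 and limma-voom, which called 0; 7.74%, 8.97% and 6.92% of all genes were at such a p. For Fbp2 the difference could not be estimated, since both liver groups were at 0 reads. These intervals are wide for Pck1, and a missed threshold does not show that the organs responded alike.

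**Figure D5:**
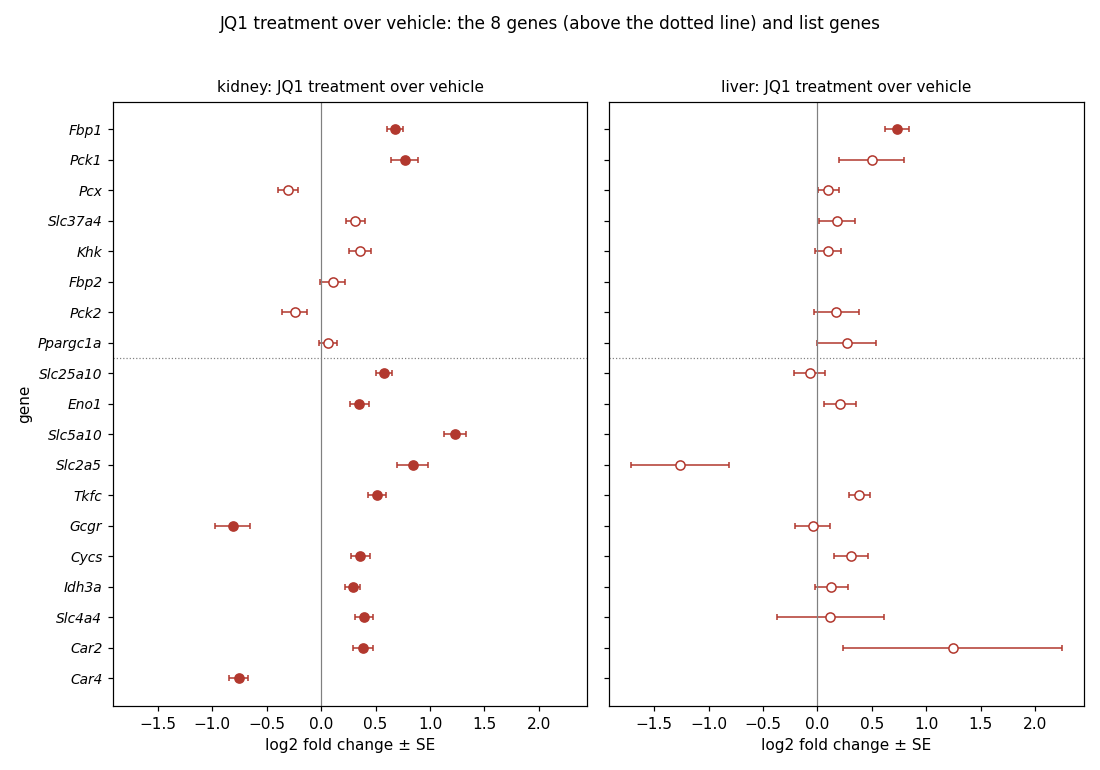
The log2 fold change of JQ1 treatment over vehicle (x axis) with its SE is given for the 8 members, above the dotted line, and for the named list genes called in kidney, below it, in kidney (left) and liver (right); filled points passed an edgeR adjusted p below 0.05. Fbp1 is filled in both organs (0.68 and 0.73), Pck1 only in kidney (0.77, against 0.50 in liver), and genes with almost no liver reads (Fbp2, Slc5a10, Car4) have no liver point.

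In vehicle mice, the order of the members was given in TPM, the share of transcripts after allowing for length. In kidney the mean TPM was 352 ± 52 for Khk, 312 ± 35 for Fbp1, 175 ± 36 for Pck1, 38.7 ± 4.5 for Slc37a4, 20.5 ± 0.92 for Pcx, 14.6 ± 1.7 for Ppargc1a, 8.39 ± 0.73 for Fbp2 and 5.53 ± 0.81 for Pck2 (SD, n = 4). Only Khk and Fbp1 overlapped among neighbours, and the Khk TPM rests on its short transcript model. In liver it was 138 ± 22 for Fbp1, 128 ± 22 for Khk, 65.4 ± 7.4 for Pck1, 13.6 ± 1.2 for Pcx, 10.7 ± 2.5 for Slc37a4, 2.22 ± 0.58 for Pck2 and 1.22 ± 0.25 for Ppargc1a (SD, n = 4), and Fbp2 was at 0 in each. Fbp1 overlapped with Khk and Pcx with Slc37a4. In both organs Pck1, Fbp1 and Khk were thus the most abundant, and Pck2 stayed far below Pck1.

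Between the organs, direction depended on the scaling for several members, so both scalings are given. On the TMM scale, 6 of 8 members were called between kidney and liver, against 61.8% of all genes (32.1% higher, 29.6% lower in kidney). With library sizes alone, the 5687 higher and 5250 lower calls became 11819 and 2150, and 7 of 8 members were called. With library sizes alone, Fbp2 was at least 265.1-fold higher in kidney. This bound is set against a floor of 3 reads over the 4 vehicle livers together, the limit that 0 reads in the whole group allows. It was not computed on the TMM scale, where it would be smaller. With TMM factors, Ppargc1a was higher in kidney by 2.10 ± 0.20 (edgeR adjusted p = 5.834e-08), Slc37a4 by 0.39 ± 0.13 (edgeR adjusted p = 0.0125) and Pck2 by 0.46 ± 0.15 (edgeR adjusted p = 0.0137) on the log2 scale. With library sizes alone, every kidney to liver difference moved up, the median of all genes by 0.855, and these 3 were at 2.96, 1.24 and 1.31. Pck2 turned to -0.14 when its counts were scaled for transcript length. Pcx was at -0.78 and Fbp1 at -0.46 on the TMM scale, both called lower in kidney, but at 0.07 and 0.39 with library sizes alone, where Fbp1 was called higher (edgeR adjusted p = 0.0013). Pck1 and Khk were at -0.0048 and -0.067 on the TMM scale and at 0.86 and 0.79 with library sizes alone. Higher kidney levels of Fbp2, Ppargc1a and Slc37a4 were thus found on both scales, while no direction is given for Fbp1, Pck1, Khk and Pcx.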

How the data were processed

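Kidney and liver RNA was poly(A) selected and sequenced as single-end 75-base reads. Per the labels and methods, the authors trimmed reads with fastp 0.20.1 and quantified transcripts with Salmon 1.10.0 on a mouse annotation (mm10 in the labels; GENCODE vM30, a release for a later assembly, in the methods), so no coordinates were taken from the files. The deposited files give per transcript an estimated count, which need not be whole, and TPM; estimated counts do not tell a gene from its near-identical copies with certainty. Here counts were summed by gene and rounded. edgeR 4.0.16 (R 4.3.3) was used with TMM factors, a filter of 10 counts (minimum total 15) and a quasi-likelihood test over the 3 groups of an organ, or all 20 libraries for contrasts between organs. Genes were called at an adjusted p (Benjamini-Hochberg, over all genes tested) below 0.05; SE is the fold change divided by the root of F. CPM is on the TMM scale except for marker sums. DESeq2 1.42.0, limma 3.58.1 (voom), other factors, length scaling, no filter, a replicate block, each library left out and other vehicle sets were alternatives; leaving out liver recovery replicates 2 and 3 together and library sizes without TMM factors were chosen after seeing the data. The fit was tested on simulated data. Named genes were the 8 members, list genes called in a comparison with vehicle (at most 6 per list), and the 3 genes most like each member called in kidney, over genes of at least 10 CPM. Genes named from marker lists to show cell content, and list genes named in liver, were chosen after their values were seen. Some genes that met this rule are counted in their lists but not reported here. Members and lists were chosen with earlier results of these data known. Depth limits the low members (Fbp2, Pck2) most.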

Additional observations from a re-analysis of the deposited data

Results flagged for a closer look

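Among 15 sets of 4 vehicle values (a member in an organ), 2 held a library far from the other 3; chance gives about 1 in 20. Khk was at 113 CPM in liver vehicle replicate 2 of the 10-week age, against 93.1 to 94.6 CPM in the other vehicle livers. Ppargc1a was at 11.7 CPM in the 16-week vehicle liver, against 17.7 to 18.4 CPM in the other 3.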

How the results depend on the processing

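Fbp1 and Pck1 kept their call in treated kidneys under all alternatives. Members called in treated kidneys numbered 2. They were 5 with DESeq2 or without the low-count filter, 4 with vehicle of the same time only, and 2 or 3 with the other settings. With 1 library left out they were 2 to 4. In recovery kidneys 0 became 1 without the filter and 0 to 3 with 1 library left out. Between treated and recovery kidneys 2 became 1 with length-scaled TPM counts and 3 with DESeq2 or limma-voom. The count was 2 or 3 with the other settings and 2 to 4 with 1 library left out. With 1 library left out, the 1 call in treated livers ranged from 0 to 1, the 0 in recovery livers from 0 to 2, and the 1 between treated and recovery livers from 1 to 3; without recovery replicates 2 and 3 that count was 2. The cause of these changes was not tested.

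Of the values that changed sign under an alternative, those of Fbp1, Pcx and Pck2 between organs had been called, and the others had not. In treated kidneys Ppargc1a (0.06) was -0.034 without TMM factors, -0.0097 with vehicle of the same time, and -0.010 to 0.11 with 1 library left out. In recovery kidneys Ppargc1a was 0.10 with vehicle of the same time. In recovery livers without TMM factors Fbp1 was 0.027, Pcx 0.056, Slc37a4 0.11 and Khk 0.079; Pck2 was -0.017 with length-scaled TPM counts and -0.21 without replicates 2 and 3, where Ppargc1a was -0.020. With 1 library left out, Pck2 ranged from -0.016 to 0.27 and Slc37a4 from -0.27 to 0.086. In the organ difference Fbp1 was 0.036 with vehicle of the same time and -0.10 to 0.010 with 1 library left out, and Pck1 was -0.041 to 0.71. Between organs in vehicle, library sizes alone gave 0.39 for Fbp1, 0.86 for Pck1, 0.072 for Pcx and 0.79 for Khk. Pck1 was 0.046 with RLE factors and with DESeq2, 0.033 without the filter, 0.0018 with only the groups compared and -0.11 to 0.11 with 1 library left out; Khk was -0.18 to 0.0037, and Pck2 was -0.14 with length-scaled TPM counts.

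Whether same-numbered libraries share an animal is not known from the labels. Their deviations from group means correlated between -0.172 and 0.141, over 0.1 in 1 of 9 pairs within kidney. Between kidney and liver the range was -0.0716 to 0.0476, and low values cannot exclude a shared animal. Apart from the replicate block, the contrasts between organs took kidney and liver libraries as independent. The replicate block gave 554 genes in treated kidneys, 41 in treated livers, and called Pck1 between treated and recovery kidneys (edgeR adjusted p = 0.0383). Genes called in treated kidneys (709) were 432 with length-scaled TPM counts, 1084 without the filter and 459 with only the groups compared. In treated livers 72 became 284 with DESeq2, 29 with limma-voom, 37 with length-scaled TPM counts, 128 without the filter, 368 with only the groups compared and 358 without recovery replicates 2 and 3. In recovery kidneys 1 became 103 with DESeq2 and 182 without the filter, and in recovery livers 5 became 662 and 226. Groups of 3 and a single 16-week vehicle library per organ limit every recovery comparison, and low counts limit Fbp2 and Pck2.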
